A study of Bos taurus with 16 samples.

Results

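The proteasome subunit genes of cattle were followed in whole blood RNA labelled with Cy3, on 16 Agilent arrays read in 1 colour. Members were the probes whose gene symbol begins with PSMA to PSMG and a number, without the interferon-inducible core subunits PSMB8, PSMB9 and PSMB10. This gave 95 of 43653 probes, for 45 gene symbols. Classed by symbol, the core particle (PSMA, PSMB) had 31 probes for 15 genes. The regulatory particles (PSMC, PSMD, PSME) had 50 probes for 24 genes. The inhibitor PSMF1 had 3 probes and the 4 assembly chaperones PSMG1 to PSMG4 had 9. PSMC3IP, with 2 probes, met the naming rule although it is a recombination cofactor and no proteasome subunit, and none of its probes passed the filter on dim signals.

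The cows were lactating Holstein Friesian females, 5 in each of 2 arms. One arm received FASTtrak microbial pack, an oral supplement with yeast culture and fermentation products of Enterococcus, Lactobacillus and Bacillus, and the other received water. The 4 groups were blood drawn before supplementation (day 0), blood of the probiotic arm at day 60, blood of the untreated arm at day 60, and day 60 blood of the probiotic arm given lipopolysaccharide (LPS, a component of the outer membrane of Gram-negative bacteria) at 100 ng/ml outside the animal. All blood was held for 30 min at 37 °C in 5% CO2, and the labels tie the day 0 samples to the probiotic arm. The labelled RNA was a pool per group. The 4 arrays of a group therefore repeat 1 pool, and every p-value measures how far repeat arrays spread, which says nothing of the spread among cows. A slide held the arrays of 1 group, so slide effects and group effects cannot be told apart. Only the probiotic and LPS arrays shared a scan day. In pooled blood, fewer cells of a type and less RNA per cell cannot be told apart.

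The proteasome is the barrel-shaped protease that degrades proteins tagged with ubiquitin in the cytosol and nucleus. Its core particle is built of rings of alpha subunits (PSMA genes), which form the gate, around rings of beta subunits (PSMB genes), among which PSMB5, PSMB6 and PSMB7 carry the active sites. The regulatory particle caps the core: PSMC genes encode the ATPases that unfold substrates, and PSME genes encode ATP-independent activators. PSMD genes mostly encode base and lid subunits, some of which bind or remove ubiquitin. In blood leukocytes the proteasome supplies peptides for antigen presentation and degrades the inhibitor that holds NF-kB in the cytosol.

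The arrays differed in ways that touch every result. The share of all probes that the scanner software called well above background was 8.26 to 23.0% on the day 0 arrays, 26.4 to 37.1% on the probiotic arrays, 12 to 17.9% on the untreated arrays and 22.5 to 42.1% on the LPS arrays. Replicate 4 was the dimmest array of the day 0, probiotic and LPS groups. The untreated arrays stood apart: over all probes their median rank correlation was 0.25 with day 0, 0.29 with probiotic and 0.28 with LPS arrays, against 0.79 between probiotic and LPS arrays and 0.49 among the untreated arrays themselves. The brightest of the manufacturer's spike-in controls read 100 to 136 units on the 4 untreated arrays and 136 units on probiotic replicate 4, against 249 units on day 0 replicate 4 and 1128 units or more on the other 10 arrays. Signal also depended on where a probe lay. With the rows of the array cut into 4 equal bands, probes in the first and last band (outer rows) were above background more often than the others (middle rows) in 3 groups: at day 0, 10.6% of outer and 2.63% of middle probes were so on all 4 arrays. On the untreated arrays it was the reverse, with 3.95% of outer and 7.15% of middle probes.

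The probe sequences are shown first because pairs of probes for 1 proteasome gene, printed at different places, bear on how the values can be read. In 6 genes, 2 probes shared a run of 33 to 60 bases. The stretches below are the first 30 shared bases of each pair, 5′ to 3′, and for PSMD8 30 bases that hold the base next to the shared run, which differs and is in capitals.

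PSMA5, rows 271 and 453: cagttccttgggaaatctccagtgtatgtg

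PSMA7, rows 51 and 240: cattccacttatccatactgtccaagtgtc

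PSMC4, rows 177 and 360: ccccaaacctagttctctttcctctttacc

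PSMD4, rows 364 and 482: gtagggtcggaggtgttgtctgtaaccact

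PSMG2, rows 355 and 434: atgcttactaccaacacaactggtaaacaa

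PSMD8, row 239: aggcagttTcagtgcagagttccccccacc

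PSMD8, row 330: aggcagttGcagtgcagagttccccccacc

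The PSMA7 probes shared 53 of their 60 bases. The probe in row 51 read 932, 794, 696 and 2.87 units of net signal at day 0, and 3027, 2529, 2823 and 498 units on the probiotic arrays. The probe in row 240 was below 0 on all 4 day 0 arrays, and read 2142, 1641, 1954 and 0.736 units on the probiotic arrays. The outer probe was above background on 3 day 0 arrays and the middle probe on none. For PSMD4, the ubiquitin receptor of the regulatory particle, the outer probe read 4365 to 4695 units on the probiotic arrays and the middle probe, with 35 shared bases, was below 0 on all 4. For PSMG2, which pairs with PSMG1 in the assembly of the alpha ring, the outer probe read 1706 to 1975 units on the probiotic arrays, and the middle probe read 6.31 to 16.5 units there. PSMA5 ran the other way: the middle probe read 191 to 1411 units on the probiotic arrays and the outer probe was below 0 on all 4. The PSMC4 probes were identical over all 60 bases and lay in different middle rows. On the probiotic arrays the probe in row 177 read 112.5, 61.6, 71.2 and -0.25 units, and that in row 360 read 163, 129, 118 and 144 units. On the untreated arrays they read 44.3, 164, 106 and 103 units and 162, 135, 200.3 and 199 units.

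Detection was also counted over the whole array. Among 1075 pairs of probes for 1 gene that shared at least 30 bases, 532 had 1 probe in the outer and 1 in the middle rows. At day 0 the outer probe was above background on all 4 arrays and the middle probe on none in 54 of these pairs, and the reverse held in 2. The numbers were 105 and 37 on the probiotic arrays, 5 and 16 on the untreated arrays, and 24 and 16 on the LPS arrays. Values below are each that of 1 probe at 1 place, and the proteasome probes described singly lie in the outer rows unless middle rows are named.

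**Figure D1:**
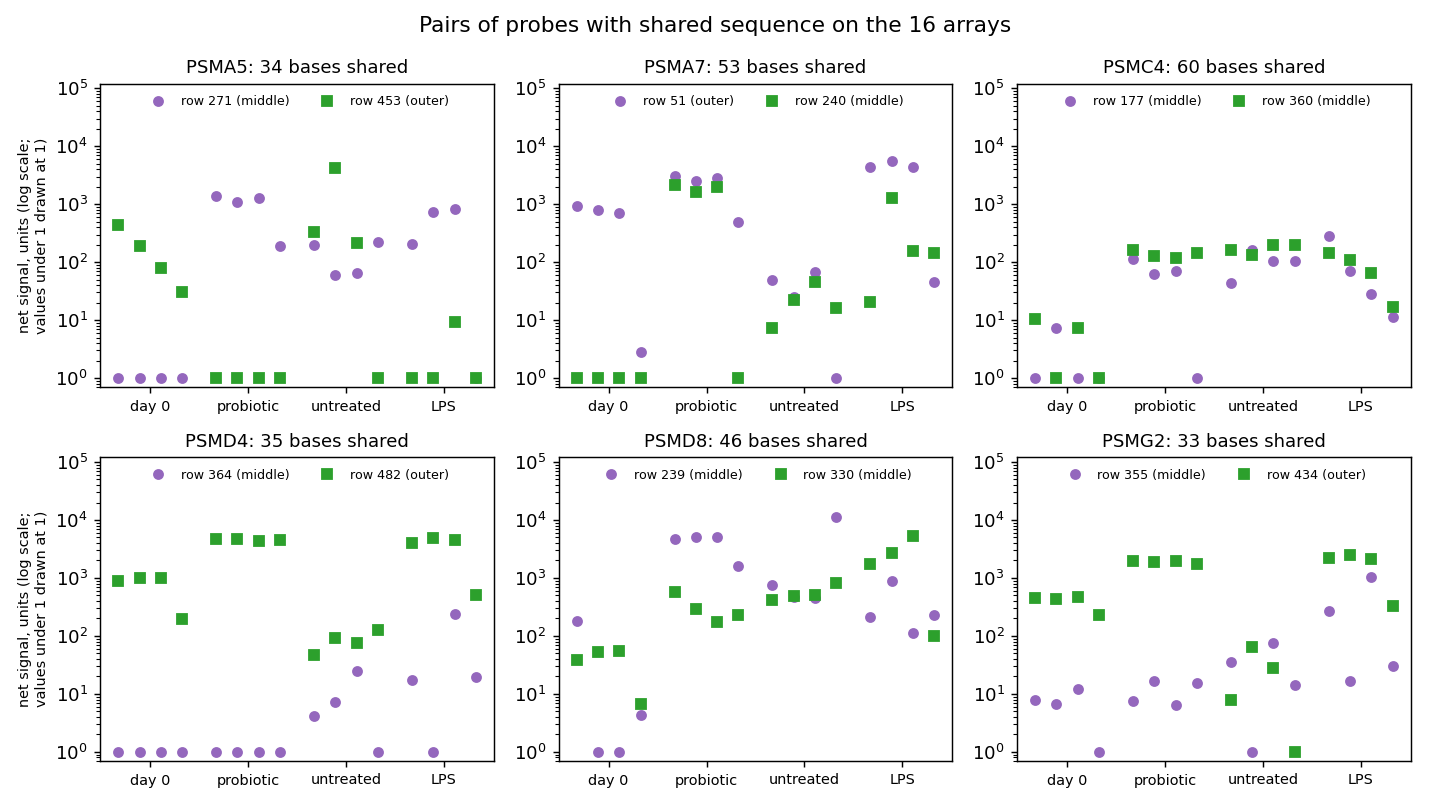
Net signal in scanner units on a log axis (values under 1 drawn at 1) of 6 pairs of same-gene probes that share sequence, on the 4 arrays of each group; each point is 1 array, and circles and squares are the 2 probes. On the first 3 day 0 arrays the outer-row probes of PSMA7, PSMD4 and PSMG2 read 427 units or more, while their partners in middle rows read at most 12 units.

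The whole probes of 3 genes without such a pair are shown as what the values below measure: a catalytic beta subunit, an ATPase and an activator subunit. Each has 60 bases, 5′ to 3′.

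PSMB6, row 56: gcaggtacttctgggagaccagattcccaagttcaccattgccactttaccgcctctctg

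PSMC3, row 31: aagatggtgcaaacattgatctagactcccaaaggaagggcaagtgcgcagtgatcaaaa

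PSME1, row 116: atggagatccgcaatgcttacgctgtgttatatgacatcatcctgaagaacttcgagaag

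Proteasome probes were detected more often than the average probe in each group. Of the 95, 18 (18.9%) were above background on all 4 day 0 arrays, against 6.56% of all probes. The counts were 39 (41.1%, against 23.7%) on the probiotic arrays, 8 (8.42%, against 5.57%) on the untreated arrays and 26 (27.4%, against 14.9%) on the LPS arrays. All 18 probes detected at day 0 lay in the outer rows, where 18 of 48 members were detected, against 0 of 47 in the middle rows. On the probiotic arrays 14 of 31 core (45.2%) and 20 of 50 regulatory probes (40%) were detected. On the LPS arrays 17 of 50 regulatory (34%) and 5 of 31 core probes (16.1%) were. By array, LPS replicates 1, 2 and 3 detected 54.8, 58.1 and 64.5% of core and 60, 70 and 72% of regulatory probes. The dim LPS replicate 4 detected 29% of core and 40% of regulatory probes. No test was made of these shares. Of the 95 probes, 19 were above background on no array, and 1, the PSMB7 probe in row 86, was above background on all 16.

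**Figure D2:**
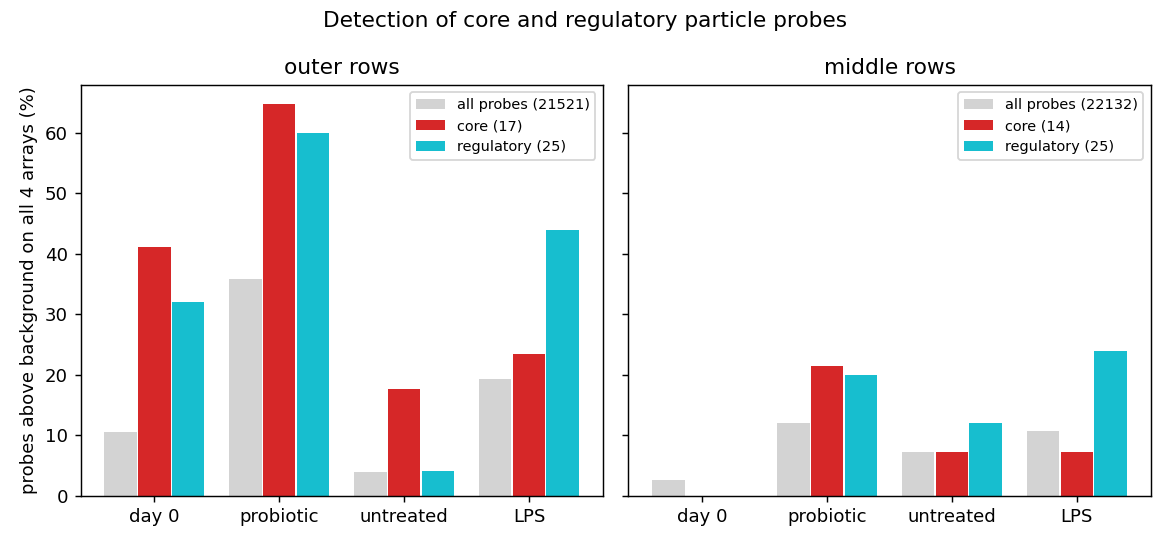
Share of probes well above background on all 4 arrays of a group, for probes in outer rows (left) and middle rows (right); grey bars are all probes, red bars the core particle and light blue bars the regulatory particles, with the number of probes in the legend. No core or regulatory probe in the middle rows was detected on all 4 day 0 arrays.

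For the comparisons, net signal was divided by a reference signal of its own array, the 75th percentile over the 671 probes above background on all 16 arrays. Levels are given as a percent of that reference, with values under 1% set to 1%. A group at this 1% limit on all 4 arrays shows no spread. Standard errors and p-values of its differences can therefore be too small. Levels of different probes are not ranked, and those of probe pairs above stand side by side as a description. A probe was tested if it was above background on all 4 arrays of at least 1 group, which kept 49 of the 95 members (51.6%) and 12198 of all probes (27.9%). The 49 were 17 core, 26 regulatory, 2 PSMF1 and 4 PSMG probes, 34 of them in the outer rows. Of these, 15 were kept through the probiotic arrays alone, 6 through the LPS arrays alone and 3 through the untreated arrays alone. A probe kept through 1 group had to be bright there, so its differences from the other groups were partly fixed by this choice and are given as a description. Probes kept in this way are named as such below, and they are included in the counts and medians. Among the genes without a tested probe were the alpha subunits PSMA1 and PSMA3, the beta subunits PSMB1 and PSMB11, the lid deubiquitinase PSMD14, PSMD9, PSMD10, PSMD12 and the activator PSME4. A difference passed at an adjusted p under 0.05 in limma, over all 12198 probes, and at least 2-fold.

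Between probiotic and untreated blood at day 60, 30 of 49 proteasome probes passed (61.2%), 24 higher and 6 lower with probiotic. Of all tested probes 60.4% passed, 31.6% higher and 28.8% lower. The members' share was thus near that of all probes. Their median difference was 2.23 on the log2 scale, against 0.15 for all probes. The members' median includes 15 probes kept through the probiotic arrays alone and 3 kept through the untreated arrays alone. It was partly fixed by that filter and is given as a description, and the matching numbers for all probes are not given. The core particle had 9 probes higher and 2 lower of 17, with a median of 2.43. The regulatory particles had 11 higher and 4 lower of 26, with a median of 1.74. The counts differed by place. In the outer rows 22 of 34 members were higher and 3 lower, where 57.8% of all outer probes passed, 40.2% higher and 17.6% lower, and the medians were 2.78 for members and 0.79 for all. In the middle rows 2 of 15 were higher and 3 lower, where 66% of all middle probes passed, 13.4% higher and 52.6% lower, and the medians were -0.28 and -1.85.

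Between untreated blood at day 60 and day 0, the members were mostly lower. Of the 49 probes 33 passed (67.3%), 9 higher and 24 lower in untreated blood, where 50.4% of all probes passed, 29.1% higher and 21.2% lower. The members' median was -1.60, against 0.17 for all probes. Of 17 core probes 3 were higher and 8 lower, and of 26 regulatory probes 6 were higher and 13 lower. Both comparisons rest on the same untreated arrays, so they are given side by side and not as support for each other. In the outer rows 2 of 34 members were higher and 23 lower, where 45.8% of all outer probes passed, 17.3% higher and 28.5% lower. In the middle rows 7 of 15 were higher and 1 lower, where 60.1% of all passed, 54.3% higher and 5.77% lower. After the scanner software's detrending, described below, the count was 12, with 2 higher and 10 lower.

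Between probiotic blood at day 60 and day 0, 7 of 49 probes passed (14.3%), 6 higher and 1 lower, where 7.09% of all probes passed, 6.03% higher and 1.06% lower. The members' median difference was 0.55, against 0.41 for all probes. In the outer rows 2 of 34 members were higher and 1 lower, where 5.63% of all outer probes passed, 4.92% higher and 0.711% lower. In the middle rows 4 of 15 were higher and none lower, where 10.2% of all passed, 8.41% higher and 1.79% lower. This comparison shares the day 0 arrays with the one above and the probiotic arrays with the first. Leaving out 1 array at a time gave 0 to 6, with 0 without probiotic replicate 2 or 3. Without the dimmest array of each of the day 0, probiotic and LPS groups the count was 10, 6 higher and 4 lower, and after detrending it was 21.

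Between LPS-treated and other probiotic blood, the comparison within 1 scan day, 1 of 49 probes passed (2.04%), where 0.451% of all probes did, 0.418% higher and 0.0328% lower. At an unadjusted p under 0.05 there were 4 of 49 members (8.16%) and 4.53% of all probes. In the outer rows 0 of 34 members passed in limma (0 also at an unadjusted p under 0.05), where 0.0482% of all did, all of them higher. In the middle rows 1 of 15 was higher, where 1.31% of all passed, 1.21% higher and 0.103% lower. The members' median difference was -0.42, against -0.04 for all probes, and without LPS replicate 4, the dimmest LPS array, both medians were 0.00. With 1 probe standing for each gene, none of the 35 proteasome genes passed in limma. The median standard error of the members was 0.79 on the log2 scale, so not passing does not show that a gene was unchanged.

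**Figure D3:**
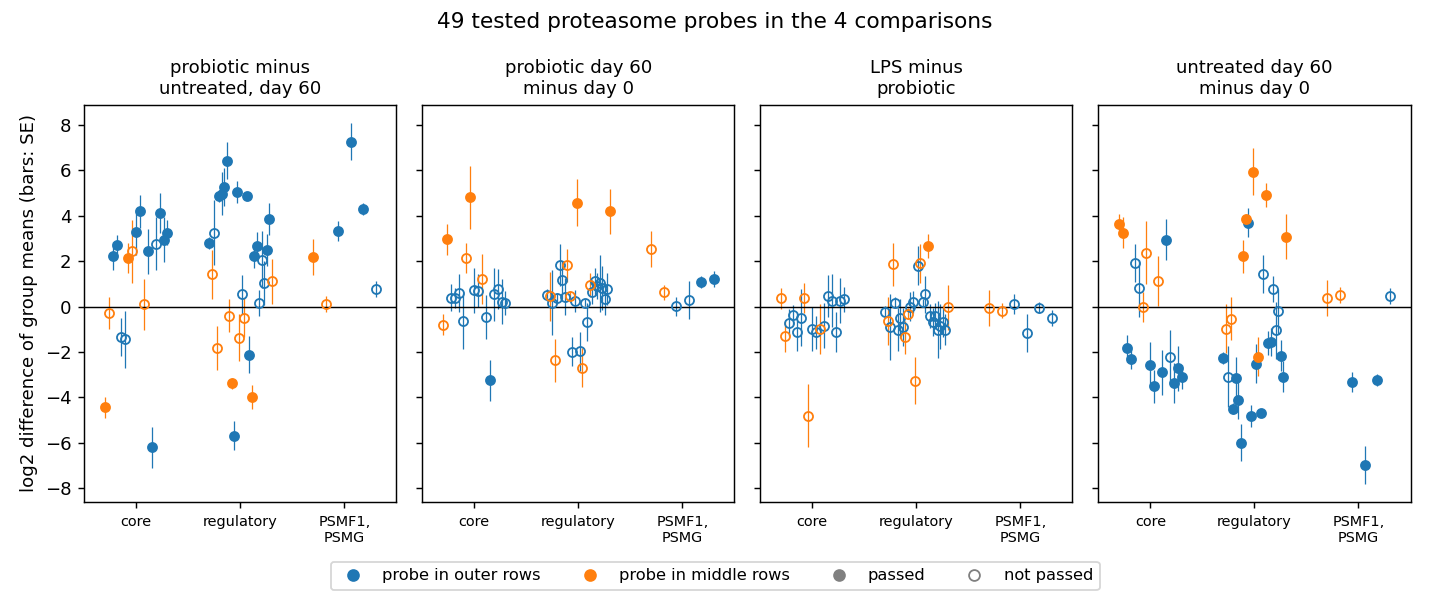
Log2 difference of group means, with its standard error as bars, for the 49 tested proteasome probes in each of the 4 comparisons, by particle; blue points lie in outer and orange points in middle rows, and filled points passed. Against untreated blood most outer-row probes are high with probiotic (22 of 34 passed as higher), and in the LPS comparison 34 of the 49 points lie within 2-fold of 0 and 1 passed.

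Single genes are described next by role, each by the tested probe with the highest mean level. Where a probe was above background on no array of a group, the difference is also given as a lower bound on the fold, taken against the lowest signal above background on those arrays. On the probiotic arrays that signal lies under the 1% limit, so a bound there can exceed the fitted fold. Each bound also rests on the scaling to the reference signals, and another scaling would move it. Those reference signals were 7120 to 11944 units on the probiotic and 1076 to 1380 units on the untreated arrays.

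Among the alpha subunits, PSMA6 is described first, by a probe in the outer rows. It read 72.2, 77.2, 84.1 and 54.6% of the reference at day 0, 81.0, 85.5, 89.2 and 116% with probiotic, 4.73, 18.1, 21.2 and 22.8% in untreated blood, and 86.2, 90.1, 90.4 and 37.3% with LPS. The untreated arrays did not overlap any other group. The difference between probiotic and untreated was 2.69 ± 0.45 (SE) on the log2 scale (adjusted p = 1.3e-04), and it passed in all 8 fits that left out 1 array. Probes of this gene disagreed: another in row 408 fell by 6.19 ± 0.91 with probiotic (adjusted p = 4.3e-05) while the one in row 64 rose by 4.11 ± 0.88 (adjusted p = 0.0011), at least 2.80-fold. The probe in row 408 was kept through the untreated arrays alone, the group where it is high.

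PSMA4 (outer rows) read 19.1, 20.7, 22.7 and 7.44% at day 0 and 10.5, 10.9, 10.7 and 14.9% with probiotic. In untreated blood it read 1% on 3 arrays and 22.1% on replicate 4. Its difference between probiotic and untreated was 2.43 ± 0.98 (adjusted p = 0.044), and it passed in 1 of the 8 fits that left out 1 array, the one without untreated replicate 4. PSMA2 (middle rows) went the opposite way, at a probe kept through the untreated arrays alone. It read 29.1, 29.6, 23.8 and 10.4% in untreated blood and at most 4.12% on every other array. The difference between probiotic and untreated was -4.43 ± 0.46 (adjusted p = 1.5e-06), at least 47.1-fold lower with probiotic. In net signal this probe read 313, 408, 268 and 132.5 units in untreated blood and 42.7, 32.5, 30.8 and 4.82 units with probiotic. PSMA2 was higher in untreated blood than at day 0 by 3.62 ± 0.46 (adjusted p = 1.2e-05).

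PSMA5 (middle rows) was 1 of the 3 genes whose probe with the highest mean level passed between probiotic blood and day 0. That PSMA5 probe was kept through the probiotic arrays alone. It was at the 1% limit on all 4 day 0 arrays and read 11.8, 9.89, 11.8 and 2.68% with probiotic. The difference was 2.96 ± 0.69 (adjusted p = 0.019), at least 4.62-fold, and it passed in 3 of 8 fits that left out 1 array. Its outer probe, shown above, was below 0 on the probiotic arrays and was not tested. With the signal after the software's detrending, a correction for smooth trends over the array that had been applied to 3 of the 4 day 0 arrays, the PSMA5 difference turned to -1.25.

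Of the catalytic beta subunits, PSMB7 and PSMB6 passed as higher with probiotic than in untreated blood and PSMB5 did not pass. PSMB7, the trypsin-like subunit, read 87.5, 89.5, 90.4 and 29.5% at day 0, 77.2, 79.0, 82.4 and 120% with probiotic, 20.6, 11.6, 18.5 and 28.6% in untreated blood, and 101, 83.2, 81.7 and 12.1% with LPS. Its difference between probiotic and untreated was 2.23 ± 0.60 (adjusted p = 0.0050), and its lower level in untreated blood than at day 0, -1.84 ± 0.60 (adjusted p = 0.019), was lost on leaving out any of day 0 replicates 1, 2 and 3 or untreated replicate 2 (highest adjusted p = 0.0535). A second outer PSMB7 probe rose by 4.19 ± 0.73 with probiotic (adjusted p = 2.0e-04), at least 2.20-fold. PSMB6, the caspase-like subunit, read 23.6, 27.1, 25.9 and 20.6% with probiotic and 5.53, 1.00, 7.13 and 1.00% in untreated blood, where it was above background on no array. This probe was kept through the probiotic arrays alone. The groups did not overlap, which this choice partly fixed. As a description, the difference was 3.27 ± 0.98 (adjusted p = 0.010), at least 2.92-fold.

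PSMB5, the chymotrypsin-like subunit, read 14.9, 17.1, 19.0 and 6.31% at day 0, 16.8, 19.1, 18.3 and 26.1% with probiotic and 41.8, 20.2, 90.8 and 82.2% in untreated blood. Its difference between probiotic and untreated was -1.34 ± 0.83 (adjusted p = 0.17) and the groups overlapped. PSMB4, a structural beta subunit, read 109, 110, 112 and 153% with probiotic and 5.24, 9.06, 11.8 and 44.8% in untreated blood, a difference of 3.25 ± 0.54 (adjusted p = 1.3e-04) that passed in all 8 fits that left out 1 array. Another PSMB4 probe, in row 239 of the middle rows, was kept through the probiotic arrays alone and was named after its values were seen. It read 23.9, 52.2, 49.8 and 9.91% with probiotic, the 1% limit on all 8 day 0 and LPS arrays, and 2.25, 1.00, 1.00 and 323% in untreated blood. It was higher with probiotic than at day 0 by 4.81 ± 1.39 (adjusted p = 0.0467), at least 16.6-fold, and passed in 0 of the 8 fits that left out 1 array, where the probe described first differed by 0.15 ± 0.54 (adjusted p = 0.95). Its difference between LPS and probiotic was -4.81 ± 1.39 (adjusted p = 0.302), and it passed when the untreated arrays were left out (adjusted p = 0.000865) or only both groups were fitted (adjusted p = 0.0176). Those fits drop the untreated array at 323%, and LPS values at the 1% limit have no spread. The standard errors there, 0.44 and 0.528, thus rest partly on that limit, and the difference is given as a description. Under cyclic loess, a scaling that removes intensity-dependent shifts between arrays, the differences of PSMB4, PSMB7, PSMA6 and PSMD4 between probiotic and untreated turned to -0.08, -0.97, -0.51 and -0.07.

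Of the 6 ATPases of the regulatory base, 3 passed as higher with probiotic than in untreated blood and PSMC4 passed as lower. PSMC1 and PSMC2 (both middle rows) did not pass, the latter at a probe kept through the probiotic arrays alone. PSMC6 read 25, 27.3, 28.0 and 36.1% with probiotic, 22.7, 23.5, 26.1 and 30.5% at day 0, 34.9, 32.3, 28.8 and 35.2% with LPS, and was at the 1% limit on all 4 untreated arrays. Its difference was 4.85 ± 0.17 (adjusted p = 3.8e-11), at least 3.49-fold. The 1% limit left no spread on the untreated arrays, so this standard error and p-value rest partly on the limit. The 3 other groups overlapped. PSMC5 read 60, 62.9, 72.8 and 57.4% with probiotic and at most 2.95% in untreated blood, a difference of 5.26 ± 0.84 (adjusted p = 9.8e-05), at least 7.62-fold. PSMC3 passed at 2.68 ± 0.61 (adjusted p = 0.0017), at a probe kept through the probiotic arrays alone. It was above background on no untreated array and no bound above 1-fold could be given, so this value rests on the 1% limit. PSMC4 (middle rows) read 15.1, 9.77, 17.8 and 15.7% in untreated blood and at most 2.02% on every other array. Between probiotic and untreated it differed by -3.38 ± 0.24 (adjusted p = 3.1e-08), and it was higher in untreated blood than at day 0 by 3.83 ± 0.24 (adjusted p = 9.4e-09), at least 8.44-fold. In net signal, given with the sequences above, this probe overlapped between both groups, and the reference signals that divide it were 7120 to 11944 units on the probiotic and 1076 to 1380 units on the untreated arrays.

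Among the other subunits of the regulatory particle, PSMD4 is a ubiquitin receptor. It read 39.3, 42.2, 40.4 and 63.8% with probiotic, 29.5, 34.7, 38.6 and 25.6% at day 0 and 4.28, 6.61, 6.60 and 9.77% in untreated blood. Between probiotic and untreated it differed by 2.80 ± 0.27 (adjusted p = 7.0e-07). Day 0 and untreated arrays did not overlap either, with a difference of -2.28 ± 0.27 (adjusted p = 5.6e-06). PSMD11, a lid scaffold, read 44.9, 47.0, 48.6 and 67.7% with probiotic and 1% on 3 untreated arrays with 5.79% on replicate 3, a difference of 5.05 ± 0.49 (adjusted p = 7.5e-07), at least 6.21-fold. PSMD1, the large base scaffold, was at the 1% limit on all 4 untreated arrays and read 27.7, 28.9, 30.7 and 39.0% with probiotic, a difference of 4.97 ± 0.94 (adjusted p = 4.1e-04), at least 3.79-fold, at a probe kept through the probiotic arrays alone. PSMD3, another lid scaffold, read 59.4, 65.6, 60.8 and 44.0% at day 0 and 1.80, 3.36, 2.33 and 2.92% in untreated blood, a difference of -4.49 ± 0.24 (adjusted p = 1.8e-09), at least 6.88-fold lower.

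PSMD6, a lid subunit, went the opposite way at a probe kept through the untreated arrays alone, with 40.1, 132, 43.6 and 29.4% in untreated blood and the 1% limit on all 8 probiotic and LPS arrays. The difference between probiotic and untreated was -5.67 ± 0.62 (adjusted p = 2.7e-06), at least 112-fold lower with probiotic. PSMD2, the other large base scaffold, was read by a middle-row probe kept through the LPS arrays alone. It was above background on all 4 LPS arrays and no probiotic array, and it passed in no comparison (lowest adjusted p = 0.11).

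PSMD8, a lid subunit, was measured by tested probes in the middle rows that disagreed. The probe in row 239 read 38.8, 46.8, 46.2 and 22.7% with probiotic, 6.10, 1.00, 1.00 and 1.00% at day 0, 69.8, 34.5, 39.5 and 874% in untreated blood and 2.12, 7.82, 1.04 and 13.0% with LPS. It was higher with probiotic than at day 0 by 4.56 ± 1.03 (adjusted p = 0.017), and that call was lost in 4 of the 8 fits that left out 1 array, those without day 0 replicate 2 or 3 or probiotic replicate 2 or 3 (highest adjusted p = 0.0526). After detrending the difference was 0.33. The probe in row 330, which differs by 1 base next to the shared run, read 4.79, 2.67, 1.63 and 3.27% with probiotic and 17.7, 23.8, 48.2 and 5.64% with LPS. It was the 1 member that passed in the LPS comparison, higher by 2.68 ± 0.54 (adjusted p = 0.049), and was named after its value was seen. The difference of the probe in row 239 in the same fit was -3.26 ± 1.03 and did not pass (adjusted p = 0.42). The call at row 330 held without LPS replicate 4 (adjusted p = 0.0019) and was lost on leaving out any other of the 8 arrays compared (highest adjusted p = 0.195) or the untreated arrays (adjusted p = 0.11).

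The activator subunits PSME1 and PSME2 form the interferon-inducible cap of the core particle. PSME2 (outer rows) read 143, 162, 152 and 225% with probiotic, 164, 184, 164 and 47.4% at day 0, 195, 168, 168 and 11.7% with LPS, and 4.54, 1.00, 1.00 and 3.21% in untreated blood. Its difference between probiotic and untreated was 6.43 ± 0.83 (adjusted p = 1.3e-05), at least 20.3-fold. PSME1 (outer rows) had 1 probiotic value left out by the software as an outlier. It read 82.3, 85.0 and 87.6% on the other 3 probiotic arrays and 2.25, 20.8, 135 and 1.00% in untreated blood, so the groups overlapped and the difference of 3.25 ± 1.44 did not pass (adjusted p = 0.064). Another PSME1 probe in the middle rows, kept through the LPS arrays alone, was higher with probiotic than at day 0 by 4.18 ± 0.99 (adjusted p = 0.021), where the outer probe differed by 0.17 ± 1.44 (adjusted p = 1.00). The middle-row PSME1 probe read 46.6, 44.9, 55.2 and 1% with probiotic. Its call against day 0 held in 2 of the 8 fits that left out 1 array, those without replicate 4 of either group. PSME3, the nuclear activator, read 1.81, 2.25, 1.86 and 1.39% with probiotic and 35.4, 20.2, 5.22 and 1.00% in untreated blood. Its lower level, -2.12 ± 0.82 (adjusted p = 0.037), passed in 2 of the 8 fits that left out 1 array, those without untreated replicate 3 or 4.

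PSMF1, an inhibitor that binds the core particle, passed between probiotic blood and day 0 at both tested probes, of which the one in row 484 was kept through the probiotic arrays alone. The probe in row 29 read 5.59 to 11.9% on the 4 day 0 arrays and 16.4, 18.6, 18.4 and 26.3% with probiotic, and it was at the 1% limit on all 4 untreated arrays. The day 0 and probiotic arrays did not overlap. The difference was 1.06 ± 0.26 (adjusted p = 0.026), and 1.22 ± 0.35 at the probe in row 484 (adjusted p = 0.046). Without the dimmest arrays the differences were 0.67 and 0.98, under 2-fold, and with quantile normalization 0.49 and 0.88. Without single arrays the first passed in 3 of 8 fits and the other in 0 of 8. Against untreated blood the probe in row 29 was higher by 4.30 ± 0.26 (adjusted p = 6.7e-09), at least 2.38-fold.

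Of the assembly chaperones, PSMG4 read 164, 169, 172 and 241% with probiotic, 195, 207, 206 and 62.3% at day 0, 194, 177, 166 and 7.94% with LPS and 1.96, 1.00, 1.00 and 1.06% in untreated blood. Its difference between probiotic and untreated, 7.26 ± 0.83 (adjusted p = 3.9e-06), was at least 22.3-fold. PSMG2 was higher with probiotic by 3.33 ± 0.43 (adjusted p = 1.2e-05), at least 2.27-fold, with 16.5, 17.2, 18.2 and 24% against at most 4.75% in untreated blood. PSMG1 (middle rows), at a probe kept through the LPS arrays alone, passed at 2.17 ± 0.79 (adjusted p = 0.028). It passed in 2 of the 8 fits that left out 1 array, those without replicate 4 of either group. It was above background on no untreated array and no bound above 1-fold could be given, so this value rests on the 1% limit. PSMG3 (middle rows), at a probe kept through the probiotic arrays alone, did not pass (adjusted p = 0.79).

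**Figure D4:**
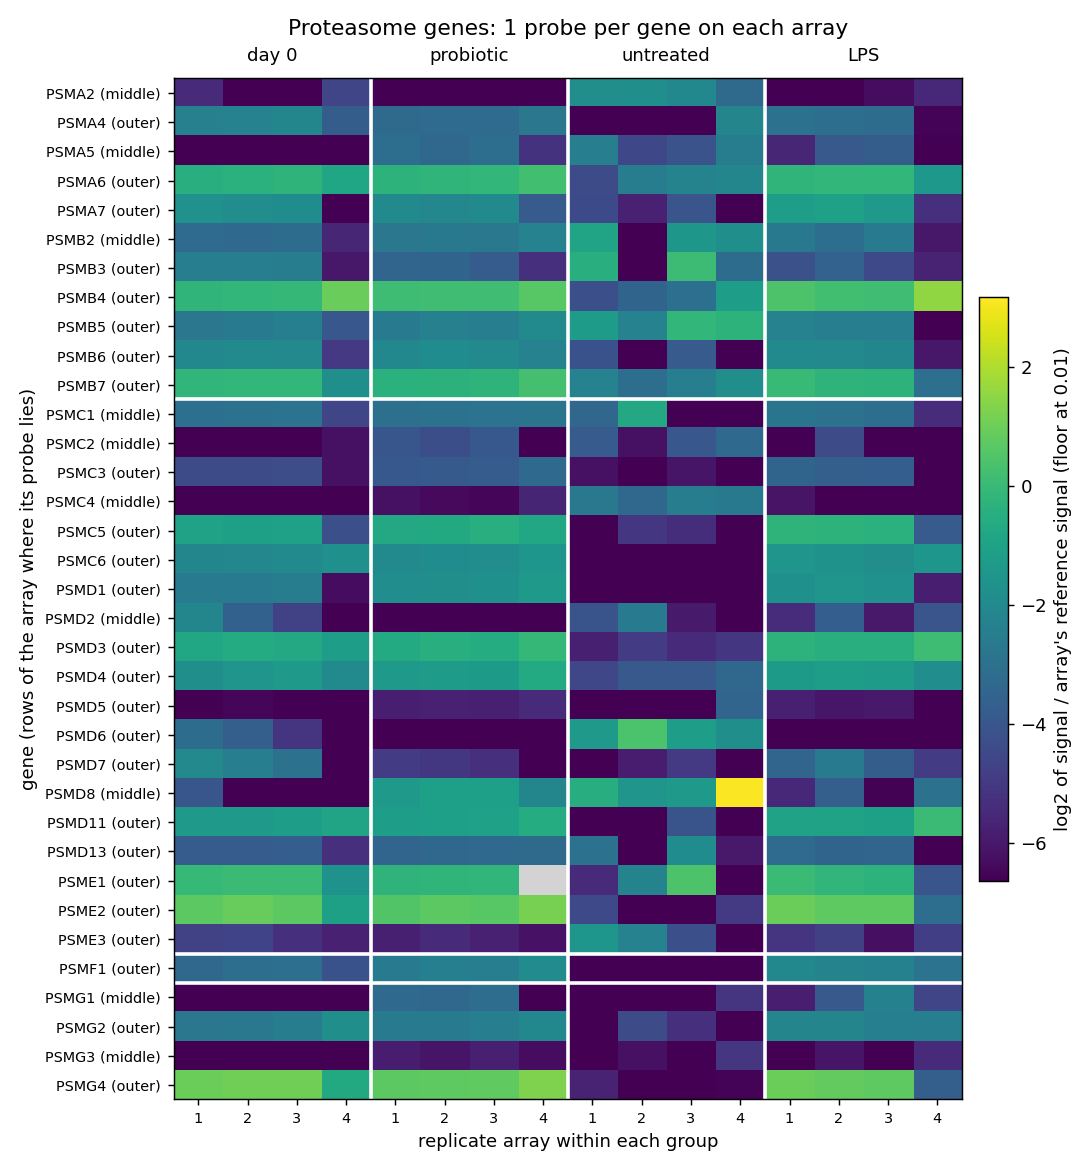
Level of the representative probe of each of the 35 proteasome genes with a tested probe, as log2 of its signal over the array's reference signal, on the 16 arrays; white lines part the groups and the core, regulatory, inhibitor and chaperone genes, grey is a value left out, and the rows of the array where the probe lies are given after each symbol. PSMC6, PSMD1 and PSMF1 are at the floor of 0.01 on all 4 untreated arrays, where PSMA2, PSMC4 and PSMD6 are brighter than on the other arrays.

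Other genes of ubiquitin-dependent degradation, 35 in a list of inducible core subunits, assembly and bound factors, ubiquitin genes, shuttle factors, the VCP segregase and the transcription factors of proteasome genes, gave 20 with a tested probe. Between probiotic and untreated blood 10 were higher and 2 lower (of all probes 31.6% and 28.8%), and between untreated blood and day 0, 2 were higher and 9 lower (29.1% and 21.2%). Between probiotic blood and day 0 none was higher and 1 lower (6.03% and 1.06%), and with LPS 1 was higher and none lower (0.418% and 0.0328%). Their median differences were 2.06, -1.17, 0.59 and -0.41. The inducible core subunits PSMB8 and PSMB9, the counterparts of PSMB5 and PSMB6, passed in no comparison (lowest adjusted p = 0.17). The core assembly factor POMP and NFE2L1 and NFE2L2, transcription factors of the proteasome genes, passed as higher with probiotic than in untreated blood. Each was above background on all 4 probiotic arrays and no untreated array, so the size of the difference is not given.

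Markers of the blood's cell types also differed between these groups, in a comparison where 60.4% of all probes passed. Of 6 neutrophil markers 5 were tested, and 3 were higher and 2 lower with probiotic than in untreated blood. The counts higher and lower were 2 and 1 of 4 monocyte, 3 and 1 of 6 T cell, 1 and 0 of 2 natural killer cell, 1 and 0 of 2 erythroid and 0 and 1 of 2 platelet markers. The summed level of the 6 T cell markers was 158 to 232% on the probiotic and 38.6 to 102.5% on the untreated arrays, and that of the 5 neutrophil markers was 177 to 191% and 76.9 to 148%. The globin genes HBB and HBG were above background on all 16 arrays. HBB did not pass between probiotic and untreated blood (0.62 ± 0.80, adjusted p = 0.52). HBG was higher with probiotic by 6.2 ± 0.84 (adjusted p = 2.3e-05). The white cell marker PTPRC was above background on all 4 probiotic arrays and 1 untreated array. Their part in the proteasome differences was not tested.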

How the data were processed

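Scanner files and a table of group averages were used. Per the submitters' processing notes, spots were read with Agilent Feature Extraction 10.10.1.1. Per the file headers, the intensity used is the net signal before detrending, with no scaling between arrays. The authors deposited the averages as log2 values whose centring is not stated (column medians -0.83 at day 0, 0.26 probiotic, 0.42 untreated, 0.01 LPS). Members and lists were chosen with earlier results of these data known.

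Net signals were divided by each array's reference (75th percentile over the 671 probes above background on all 16 arrays), floored at 0.01 and taken as log2. All 16 arrays entered 1 limma 3.58.1 fit (lmFit, eBayes, R 4.3.3), Benjamini-Hochberg adjusted over 12198 probes and tested on simulated data. A gene's representative was its tested probe with the highest mean. Always described were PSMB5 to PSMB7, PSMD2, PSMD4, PSME1 to PSME3 (PSMA3, PSMD14 and PSME4 had no tested probe), PSMF1 and PSMG1 to PSMG4, and otherwise the 5 core and 5 regulatory genes with the largest passing difference in each comparison. The 5 further probes named between probiotic blood and day 0 or LPS, PSMB4 among them, were named after their values were seen. All 45 symbols matched a bovine RefSeq table (ARS-UCD2.0). No genome was used, so no position is given. Probe sequences come from the deposited table. Alternatives were other signals, scalings, floors, filters and arrays. Normexp used median intensities, as the files hold no mean. Of the marker lists, 1 is not reported here.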

Additional observations from a re-analysis of the deposited data

Results flagged for a closer look

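In 34 of 89 sets of 4 arrays, 1 array stood apart from the other 3 by Dixon's test, which chance would give in about 1 of 20 sets. Replicate 4 of the day 0, probiotic and LPS groups gave most of them. Levels are percent of the array's reference signal.

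On LPS replicate 4 the low values were PSMD4 at 28.2%, PSME1 at 5.95%, PSMD1 at 1.76%, PSMC5 at 7.13%, PSME2 at 11.7%, PSMB7 at 12.1%, PSMA6 at 37.3%, PSMB5 at 1%, PSMB6 at 1.55%, PSMA4 at 1.06% and PSMG4 at 7.94%. PSMD11 was high there at 103%. On day 0 replicate 4 the low values were PSME1 at 32.2%, PSMD1 at 1.26%, PSMC5 at 5.3%, PSME2 at 47.4%, PSMB7 at 29.5%, PSMB6 at 3.06%, PSMA4 at 7.44% and PSMG4 at 62.3%, and PSMB4 was high at 188%. On day 0 replicate 1 the PSMD8 probe in row 239 was high at 6.1%.

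On probiotic replicate 4 PSMD4 at 63.8%, PSMB7 at 120%, PSMA4 at 14.9%, PSMG4 at 241% and PSMB4 at 153% were high, and PSMA5 at 2.68% and PSMG1 at 1% were low. On the untreated arrays PSMA6 was low on replicate 1 at 4.73%, PSMG4 was high on replicate 1 at 1.96%, PSMD11 on replicate 3 at 5.79%, and PSMG1 and PSMA4 on replicate 4 at 2.82% and 22.1%. For PSMD11, PSMG1 and PSMA4 here, and for PSMD8 on day 0 replicate 1, the other 3 arrays were at the 1% limit, and for PSMG4 they read 1.00, 1.00 and 1.06%, so the limit sets these arrays apart.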

How the results depend on the processing

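Leaving out 1 array at a time, the number of proteasome probes passing ranged from 27 to 33 for probiotic against untreated, 0 to 6 for probiotic against day 0, 0 to 1 for LPS against probiotic and 24 to 34 for untreated against day 0. Against day 0 no member call of the probiotic arrays held in all these fits. The count was 0 without probiotic replicate 2 or 3, 1 without day 0 replicate 1 or 2, 2 without day 0 replicate 3 and 3 without probiotic replicate 1. Of 40 named differences, 26 passed in all 8 fits that left out 1 array.

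For probiotic against untreated, the 30 became 1 of 1 among probes above background on all 16 arrays, 5 of 15 in the middle rows alone and 14 (2 higher, 12 lower) in the authors' deposited averages, by fold only. Scaling to the 75th percentile of all probes moved the median of all probes from 0.15 to 2.01, with 7157 of all probes higher and 1814 lower and 35 and 5 members. The median of all probes gave 5853 and 1842, quantile normalization 5005 and 2611, and normexp with quantile normalization 4453 and 2272. For untreated against day 0 the 33 became 12 after detrending, 1 of 1 among probes above background on all 16 arrays and 8 of 15 in the middle rows alone. The split of all probes, 3555 higher and 2589 lower, became 1561 and 6808 at the 75th percentile of all probes.

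For probiotic against day 0, the 7 became 21 (13 higher, 8 lower) after detrending, 24 in the authors' deposited averages, 2 with normexp and quantile normalization, the 75th percentile or the median of all probes, or a floor of 0.05, 3 in the outer rows alone, and 0 under cyclic loess, without the filter and among probes above background on all arrays. For LPS against probiotic, the 1 became 39 (34 lower) in the authors' deposited averages. It became 0 in the outer rows alone and after detrending, normexp and quantile normalization, the 75th percentile or median of all probes, quantile normalization, cyclic loess, floors of 0.001 and 0.05, no filter and the probes above background on all arrays.

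The replicate numbers did not pair the samples (median correlation of same-numbered deviations 0.016, lowest -0.24, highest 0.68). With the replicate block the counts were 31, 4, 0 and 34.

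Differences turned sign after detrending for PSMA5 (-1.25 for probiotic and -0.97 for untreated, each against day 0) and, for untreated against day 0, PSMD4 (0.13), PSMG2 (0.26) and PSMB4 (0.16). Under cyclic loess they turned for PSMD4 (-0.07), PSMB7 (-0.97), PSMA6 (-0.51) and PSMB4 (-0.08) against untreated, and for PSMB7 (0.68) in untreated against day 0. In the authors' deposited averages they turned for probiotic against untreated in PSMD4 (-0.16), PSMG1 (-1.58), PSMB7 (-0.06), PSMA6 (-0.37), PSMD11 (-0.23), PSMF1 (-0.12), PSMG2 (-0.22), PSMA4 (-0.88) and PSMB4 (-0.57), for untreated against day 0 in PSMD4 (1.31), PSMB7 (0.72), PSMF1 (0.62), PSMG2 (1.48), PSMA4 (0.39) and PSMB4 (1.34), and for the PSMA6 probe in row 408 in probiotic against day 0 (2.79). Across probes, differences of those averages correlated with detrended signals at 0.999 between untreated blood and day 0 and 0.997 between the LPS and probiotic groups, but at 0.375 and 0.43 where probiotic blood was set against untreated blood and day 0. The cause was not tested. The floor of 1% lies above the dimmest detected signals on the probiotic arrays and below them on the untreated arrays, so differences at that limit are bounded by signal over background.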
